A study of Mus musculus with 7 samples.

Results

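Open chromatin at 10 genes of regulated cell death was described in stem cells of the mouse intestine after bone marrow transplantation. The genes were the death receptor gene Fas, its effectors Casp8 and Ripk1, the necroptosis genes Ripk3 and Mlkl, the pyroptosis genes Casp1, Casp4 and Gsdmd, and the survival genes Bcl2l1 and Mcl1. They form a list of named genes, out of 21631 protein-coding genes. A peak belonged to one of them if its summit lay in the gene body, or if that gene was the nearest protein-coding gene within 50 kb. By this rule 264 of 531679 peaks over all libraries were members, and they merged into 45 of 103809 open regions. A peak outside a gene body was tied to its gene by distance alone.

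Accessibility had been measured by Omni-ATAC-seq, in which the Tn5 transposase cuts and tags open DNA. Allo libraries (4) came from B6-GFP-Lgr5 recipients given allogeneic marrow of BALB/c donors, the setting of graft-versus-host disease, and Syn libraries (3) from B6-GFP-Lgr5 recipients given syngeneic marrow. All recipients were female, 8 to 12 weeks old and lethally irradiated, so no library showed the unirradiated state. Each library held 50000 Lgr5-GFP cells sorted 7 days after transplantation from a pool of 3 to 4 mice, and values of single mice were therefore averaged.

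Death receptors such as Fas recruit caspase-8, which starts apoptosis, while the kinase RIPK1 holds the choice between survival, apoptosis and necroptosis. Where caspase-8 is inactive, RIPK3 phosphorylates MLKL, and MLKL breaks the plasma membrane. In pyroptosis the inflammatory caspases cut gasdermin D, whose freed end forms membrane pores. The BCL2-family proteins BCL-XL and MCL1 hold back the mitochondrial path, and in the gut epithelium loss of caspase-8 is known from mice to cause death of Paneth cells and inflammation of the ileum.

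The lists held between 62977 and 88861 peaks in the Allo libraries and between 71925 and 76438 in the Syn libraries, and the reads behind them are unknown. Allo 1 had the shortest list, and the peaks of Allo 3 and Allo 4 carry another naming scheme than those of the other libraries. All 5 stem cell markers (Lgr5, Olfm4, Ascl2, Smoc2, Axin2) and all 4 epithelial markers had a peak within 1 kb of a gene start in each of the 7 libraries, and so did both Paneth cell markers, Lyz1 and Mmp7. Of 9 T and NK cell markers 0 to 1 had such a peak in an Allo library (Ptprc, in Allo 3) and 0 in each Syn library. Of 5 myeloid markers 2 had one in each Allo library and 1 to 2 in the Syn libraries, with Fcgr3 in all 7. The part of other cell types in the results below was not tested.

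The death genes were open in both recipient types. Each of the 10 had a region within 1 kb of a gene start (for Gsdmd, of either end), and all 10 of these start regions were open in all 7 libraries. Of the 45 regions 32 (71.1%) were open in every library, where 48.5% of all merged regions were. That background is not limited to regions near genes. Of 257 regions of other genes of the same pathways 159 were open in every library. The values compared below are rank percentiles: all peaks of a library were ranked by their deposited −log10 q, so that the strongest peak of a library has the highest percentile. The 32 shared regions had a median percentile of 71.8, against 64.7 over the 50324 shared regions of the whole set.

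**Figure D1:**
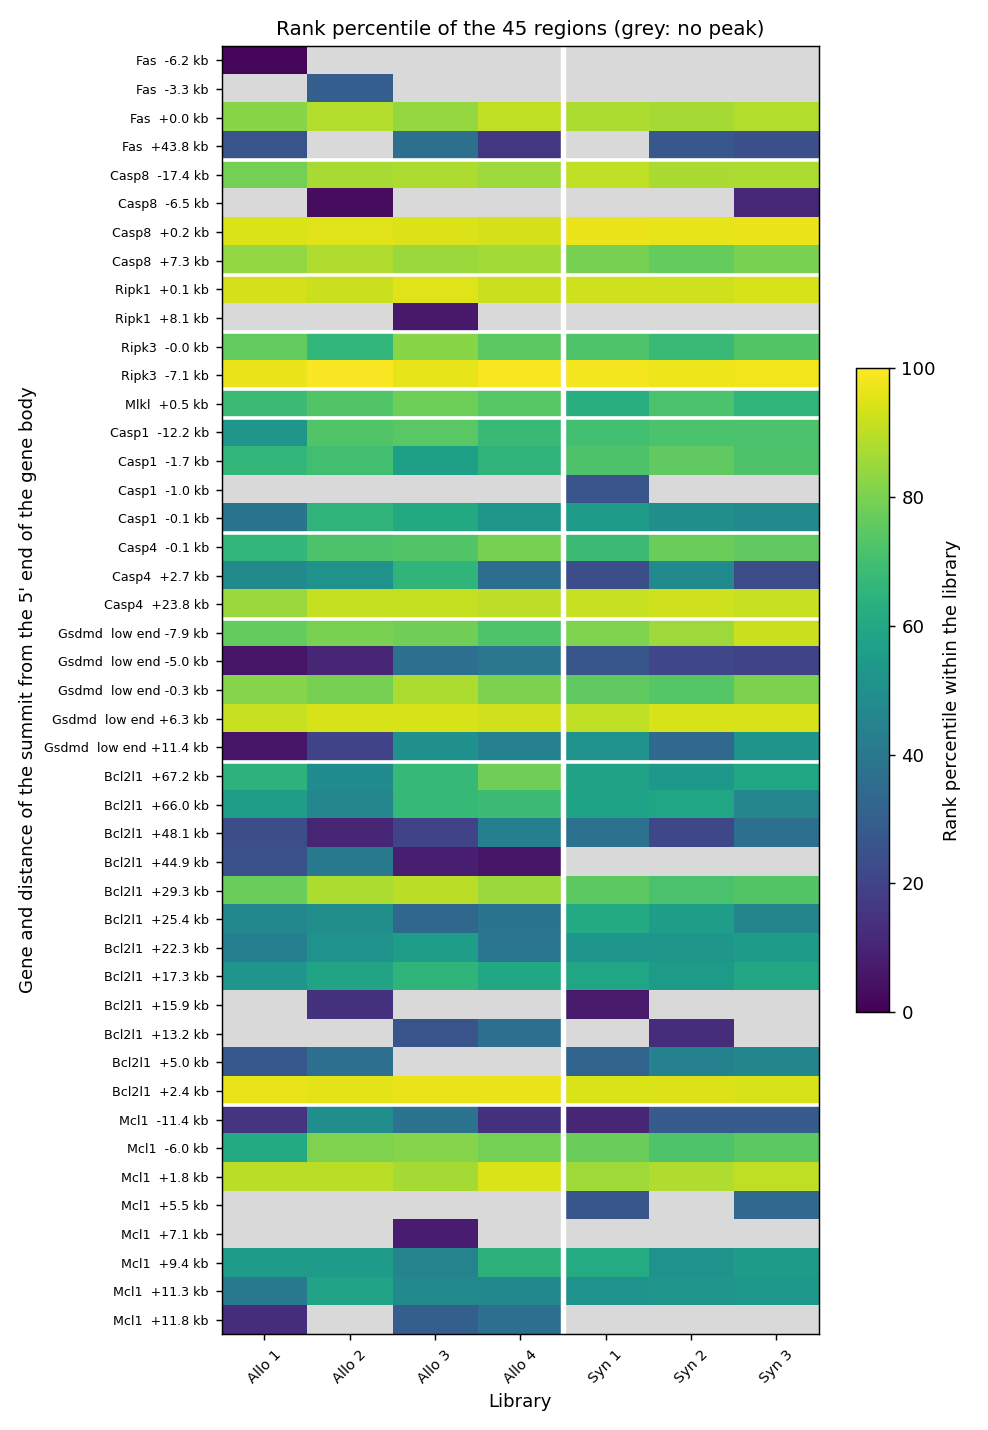
Rank percentile (colour, in percent) of the 45 regions in the 4 Allo and 3 Syn libraries, with rows grouped by gene and labelled by the distance of the summit from the 5′ end of the gene body in kb (for Gsdmd, from its lower coordinate). Grey cells hold no peak: 32 rows are filled in all 7 libraries, and 1 row, in Bcl2l1, is filled in all 4 Allo and no Syn libraries.

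Presence of peaks set the recipient types apart at 1 region. It lay in the body of Bcl2l1 and had a peak in each Allo library but in no Syn library, a pattern found for 1.14% of all merged regions. The opposite pattern, open in all 3 Syn and no Allo libraries, was found at 0 of the 45 regions and at 1.01% of all merged regions. Of the other 12 regions that were not open throughout, 5 were found in a single library, with percentiles between 1.48 and 29.7. Member peaks numbered 38, 39, 38 and 38 in Allo 1 to 4 and 38, 35 and 38 in Syn 1 to 3. Per 10000 peaks these were 4.28 to 6.03 in the Allo and 4.75 to 5.28 in the Syn libraries, so the groups overlapped.

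Signal rank did not pass the test at any member region. With limma fitted over all 50324 shared regions and Benjamini-Hochberg adjustment, 0 of 32 member regions were called higher in Allo and 0 lower, where 0.36% and 0.101% of all shared regions were called. The lowest adjusted p of a member was 0.122. At an unadjusted p under 0.05, limma gave 3 regions higher (9.38%) and 2 lower (6.25%) in Allo, close to the 8.53% and 6.88% of all shared regions. The median difference between Allo and Syn was 0.230 percentile points over the members and 0.437 over all shared regions. At 3 of the 32 regions each Allo library ranked above each Syn library (background 8.06%) and at 4 each Allo library ranked below (background 6.58%). These shares, 9.38% and 12.5%, rest on 3 and 4 regions, and the groups overlapped at the other 25.

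The lists differ in length, which moves a percentile. When ranks were instead taken among the 50324 shared regions, 1 member region was called higher in Allo by limma and 0 lower (background 1.33% and 1.57%), and 3 and 5 regions separated (background 8.41% and 8.86%). Of the calls over all regions 78.0% were higher in Allo with percentiles of the whole list, and 45.7% with ranks among shared regions. Calls higher and lower in Allo numbered 181 and 51 in the first case and 667 and 792 in the second. The number and direction of calls over the whole set thus differed between the ways of ranking, and the cause was not tested.

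**Figure D2:**
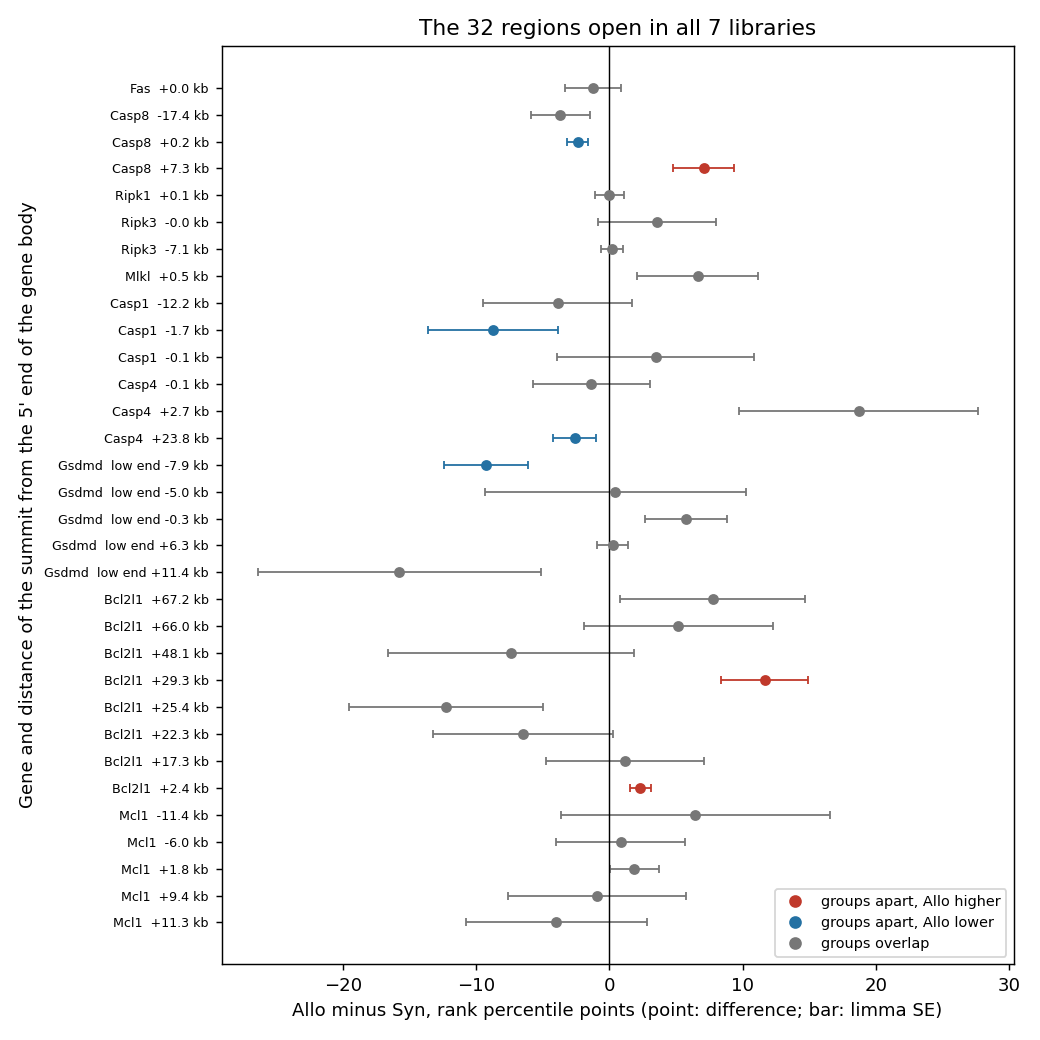
Difference in rank percentile, Allo minus Syn, at the 32 regions open in all 7 libraries (points, with limma SE as bars; rows give the gene and the distance of the summit from the 5′ end of its body in kb, for Gsdmd from its lower coordinate). Red points mark the 3 regions where every Allo library ranked above every Syn library, blue points the 4 where every Allo library ranked below, and grey points regions whose groups overlap; 0 regions passed the adjusted test.

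Fas encodes the CD95 death receptor, which Fas ligand on cytotoxic T cells engages. Its body lies on chromosome 19 (34290647 to 34327775, mm10, plus strand) and held 1 region open in all libraries, at the start (34289923 to 34291432). The rank percentile there was 82.3, 88.6, 84.1 and 90.4 in Allo 1 to 4, against 87.6, 86.5 and 88.6 in Syn 1 to 3. The groups overlapped (difference −1.25 ± 2.10, SE, limma adjusted p = 0.833). The other 3 Fas regions were weak: 1 each was found in Allo 1 and in Allo 2 alone, upstream of the start, and 1 lay 43.8 kb downstream of it in 3 Allo and 2 Syn libraries, with percentiles of at most 37.0.

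Casp8, the initiator caspase of the death receptor path that also restrains necroptosis, showed opposite tendencies at its starts. The gene body (chromosome 1, 58795233 to 58847503, plus strand) begins with an outer start region (58794875 to 58796393), and a RefSeq transcript start 7.27 kb further in lies in an inner start region (58801832 to 58803843). The outer region stood at 94.5, 95.0, 94.7 and 93.7 in Allo 1 to 4, against 97.2, 96.4 and 97.0 in Syn 1 to 3. Each Allo library was thus below each Syn library at the outer start (difference −2.38 ± 0.79, SE, limma adjusted p = 0.179). The inner region stood at 83.9, 87.9, 84.9 and 86.2 in Allo 1 to 4, against 79.5, 76.5 and 79.8 in Syn 1 to 3. Here each Allo library was above each Syn library (difference 7.08 ± 2.28, SE, limma adjusted p = 0.170). Ranked by fold in place of q, the difference was −4.99 at the outer start (limma adjusted p = 0.427) and 4.76 at the inner start (limma adjusted p = 0.776). With ranks by q, the exact permutation p was 0.0286 at each of these regions, the smallest that 4 against 3 libraries allow. Of all shared regions 8.06% separated with Allo higher and 6.58% with Allo lower. The outer region exceeded the inner one by 8.77 ± 1.73 percentile points in the 4 Allo libraries (mean ± SD) and by 18.2 ± 1.49 in the 3 Syn libraries, a contrast that was formed after the values had been seen and was not tested. Another shared region, 17.4 kb upstream, averaged 84.8 ± 3.98 in the 4 Allo libraries (mean ± SD) and 88.4 ± 1.57 in the 3 Syn libraries, and its groups overlapped.

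**Figure D3:**
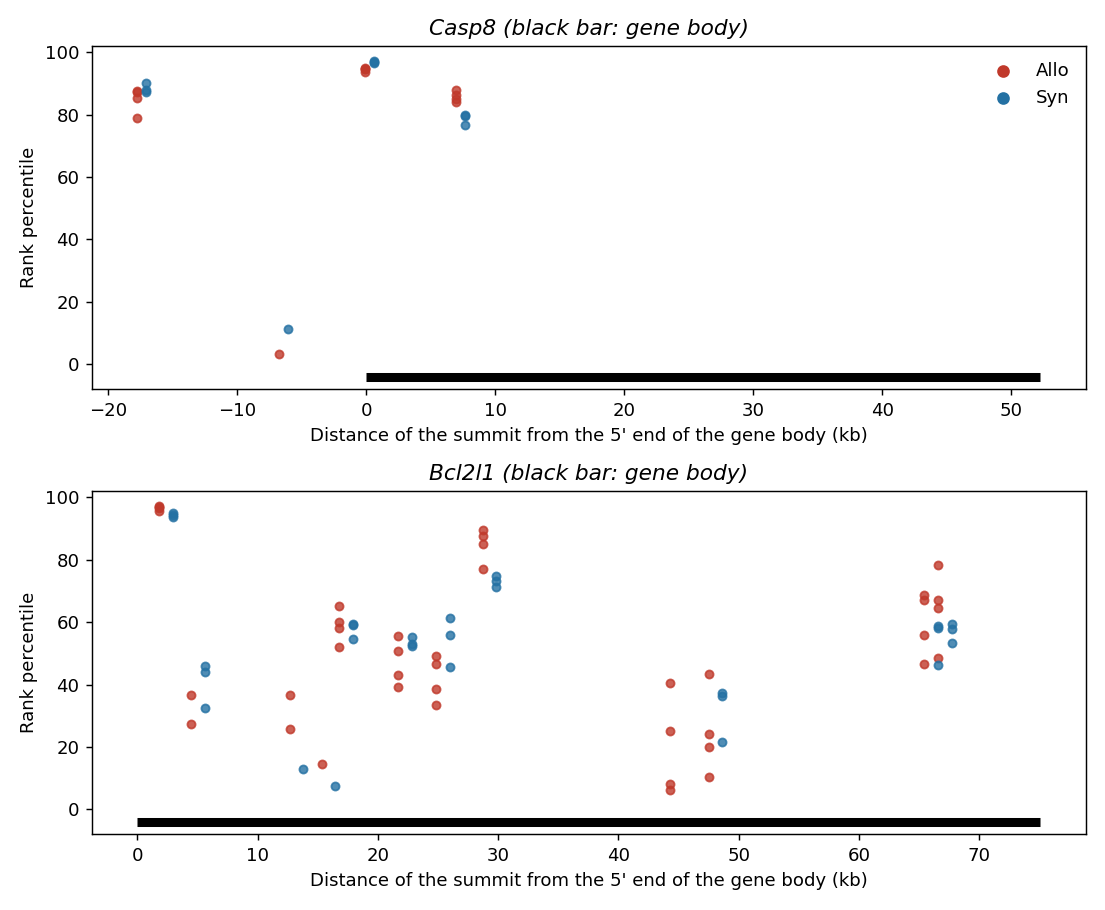
Rank percentile of every region of Casp8 (top) and Bcl2l1 (bottom) against the distance of its summit from the 5′ end of the gene body in kb, with 1 point per library holding a peak (red Allo, drawn just left of blue Syn). At Casp8 the red points lie below the blue ones at the outer start and above them at the inner start, while at Bcl2l1 they lie above the blue ones at the start region and at 1 further region in the body.

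The inner Casp8 start and the start of Bcl2l1 are shown because their regions separated the recipient types. For Bcl2l1 both windows that overlap the start region are given, the first of the start nearest the summit. The sequences, from RefSeq on GRCm38.p6, run from 250 bases before to 50 bases after a transcript start. Capitals mark letters of 4 motifs searched on both strands: the ISRE, the element of interferon-stimulated genes (GAAA and GAAA with 2 bases between), TTCNNNGAA (GAS, bound by STAT factors), an NF-kB type site (GGG and TTTCC with 2 bases between) and TGANTCA (AP-1).
Casp8 inner start, chr1:58802252-58802551, plus strand: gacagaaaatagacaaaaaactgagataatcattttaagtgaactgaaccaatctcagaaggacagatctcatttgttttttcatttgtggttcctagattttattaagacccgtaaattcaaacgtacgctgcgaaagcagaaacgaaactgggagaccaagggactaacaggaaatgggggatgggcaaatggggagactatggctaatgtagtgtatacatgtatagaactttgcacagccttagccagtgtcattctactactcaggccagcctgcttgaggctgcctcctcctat
Bcl2l1 start nearest the summit, chr2:152831679-152831978, minus strand: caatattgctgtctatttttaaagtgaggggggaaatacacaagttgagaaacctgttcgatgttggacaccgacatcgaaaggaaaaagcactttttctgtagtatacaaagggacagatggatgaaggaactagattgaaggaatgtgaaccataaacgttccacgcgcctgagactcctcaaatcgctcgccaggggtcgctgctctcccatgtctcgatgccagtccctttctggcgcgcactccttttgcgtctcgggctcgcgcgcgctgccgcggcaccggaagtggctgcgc
Bcl2l1 inner start, chr2:152830668-152830967, minus strand: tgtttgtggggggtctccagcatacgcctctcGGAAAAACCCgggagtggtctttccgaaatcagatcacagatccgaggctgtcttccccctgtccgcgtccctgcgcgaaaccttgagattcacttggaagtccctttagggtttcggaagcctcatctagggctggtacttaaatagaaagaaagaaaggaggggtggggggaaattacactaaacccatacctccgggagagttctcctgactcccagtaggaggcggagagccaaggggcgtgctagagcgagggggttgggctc
The Casp8 window and the first Bcl2l1 window held none of the 4 motifs, and the second Bcl2l1 window, of the inner start, held the NF-kB letters once, with the first base at −218. These letters occurred in 1.64% of the 32619 RefSeq windows of the same length.

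Ripk1, the kinase and scaffold that sits on TNF and death receptors, had a single shared region, at its starts on chromosome 13 (34001947 to 34003342, plus strand). It ranked high, at 93.5, 92.0, 95.0 and 92.1 in Allo 1 to 4, against 92.8, 92.8 and 93.9 in Syn 1 to 3. The groups overlapped and their means were almost equal (difference −0.0044 ± 1.07, SE, limma adjusted p = 0.999). The window of its inner start is shown because it was the 1 of 13 member windows with ISRE letters.
Ripk1, chr13:34002624-34002923, plus strand: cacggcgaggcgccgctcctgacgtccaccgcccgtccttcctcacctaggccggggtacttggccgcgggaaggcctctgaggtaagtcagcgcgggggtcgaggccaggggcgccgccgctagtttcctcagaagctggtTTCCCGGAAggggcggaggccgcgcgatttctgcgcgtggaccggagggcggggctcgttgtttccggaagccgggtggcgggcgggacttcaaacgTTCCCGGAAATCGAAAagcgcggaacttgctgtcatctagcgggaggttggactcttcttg
The ISRE letters began at −5, and the GAS letters began at −108 and −11, the second overlapping the ISRE. Among all windows 3.46% held the ISRE and 8.34% the GAS letters, and the Fas window also held the GAS letters.

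Of the necroptosis genes, Ripk3 encodes the kinase that activates MLKL. On chromosome 14 (55784995 to 55788857, minus strand) it had no peak summit inside the body and 2 regions upstream, both open in all libraries. The start region (55788183 to 55789195) stood at 76.0, 66.1, 82.4 and 74.9 in Allo 1 to 4, against 72.6, 67.8 and 73.4 in Syn 1 to 3, so the groups overlapped (difference 3.56 ± 4.45, SE, limma adjusted p = 0.760). The region 7.08 kb upstream (55795271 to 55796360) was the highest ranked of all 45, with 98.0 ± 1.39 in the 4 Allo libraries (mean ± SD) and 97.8 ± 0.36 in the 3 Syn libraries.

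Mlkl encodes the pseudokinase that carries out necroptosis and lies on chromosome 8 (111311255 to 111338479, minus strand). Its single region (111337318 to 111338727), at the start, stood at 68.4, 72.9, 78.1 and 74.0 in Allo 1 to 4, against 62.9, 71.7 and 65.7 in Syn 1 to 3. Allo 1 fell within the Syn range and the other 3 Allo libraries above it (difference 6.62 ± 4.51, SE, limma adjusted p = 0.521). Ranked by fold in place of q, the difference was −1.45.

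**Figure D4:**
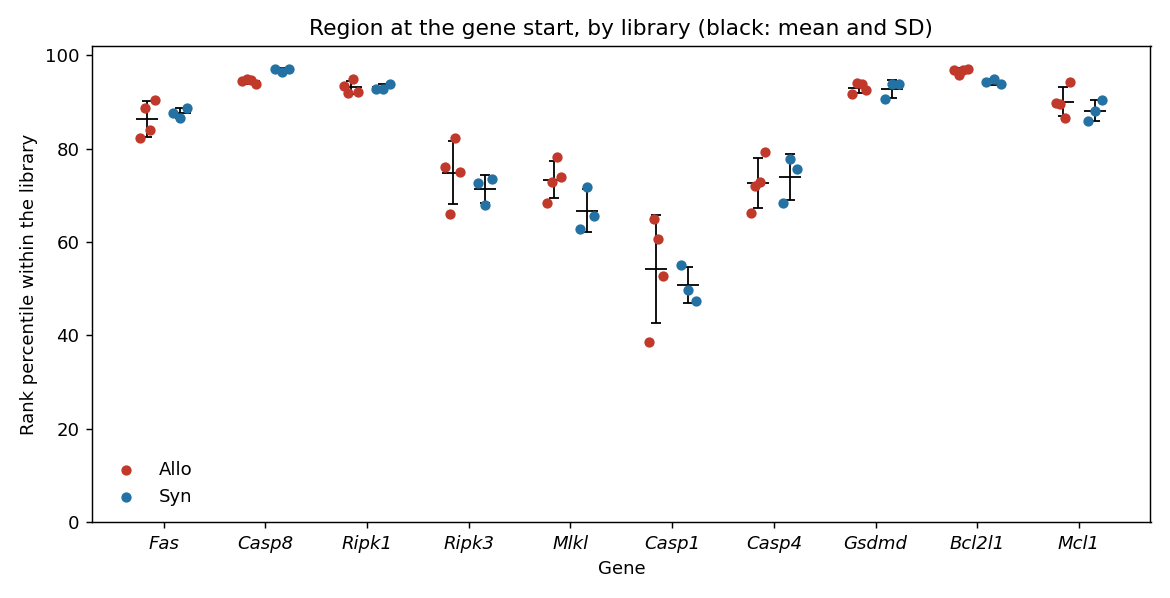
Rank percentile within the library (in percent) of the best ranked region at a start of each of the 10 genes. For Gsdmd, whose strand was not given, it is the region at the upper end, which is not shown to be a start. Each library gives 1 point (red Allo, left, and blue Syn, right), and black marks give the mean and SD. The groups are apart at Casp8, where Allo is lower, and at Bcl2l1, where Allo is higher, and overlap at the other 8 genes; Casp1 has the lowest mean, 52.7.

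Casp1, the caspase of the canonical inflammasome, lies next to Casp4 on chromosome 9 (5298517 to 5307281, plus strand). Its start region (5298045 to 5299183) was the weakest of the 10, with 38.6, 65.0, 60.6 and 52.8 in Allo 1 to 4, against 55.0, 49.8 and 47.4 in Syn 1 to 3. The Allo libraries spread on both sides of the Syn libraries (difference 3.48 ± 7.40, SE, limma adjusted p = 0.874). A region 1.65 kb upstream of the start (5296299 to 5297254) stood at 66.2, 69.9, 56.7 and 65.1 in Allo 1 to 4, against 72.2, 75.4 and 72.0 in Syn 1 to 3. Each Allo library was below each Syn library there (difference −8.74 ± 4.87, SE, limma adjusted p = 0.419, exact permutation p = 0.0571).

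Casp4, also called caspase-11 in mice, senses lipopolysaccharide in the cytosol and drives the non-canonical inflammasome. Its 3 regions on chromosome 9 (body 5308849 to 5336791, plus strand) were open in all 7 libraries. The start region (5308009 to 5309554) averaged 72.6 ± 5.37 in the 4 Allo libraries (mean ± SD) and 73.9 ± 4.91 in the 3 Syn libraries. The region 23.8 kb downstream of the start, in the body, was the strongest, with 84.8, 91.3, 91.1 and 90.0 in Allo 1 to 4, against 91.6, 92.6 and 91.5 in Syn 1 to 3. Each Allo library was below each Syn library there by a small margin (difference −2.60 ± 1.62, SE, limma adjusted p = 0.474), and ranked by fold the difference was 1.80. The largest difference among the 32 regions lay 2.69 kb downstream of the start (5311381 to 5311942), with 47.7, 51.4, 65.4 and 36.3 in Allo 1 to 4, against 23.9, 47.4 and 23.1 in Syn 1 to 3. Syn 2 lay within the Allo range (difference 18.7 ± 8.94, SE, limma adjusted p = 0.341). The Casp4 start is shown because it held the NF-kB letters at 2 places, beginning at −93 and −14.
Casp4, chr9:5308599-5308898, plus strand: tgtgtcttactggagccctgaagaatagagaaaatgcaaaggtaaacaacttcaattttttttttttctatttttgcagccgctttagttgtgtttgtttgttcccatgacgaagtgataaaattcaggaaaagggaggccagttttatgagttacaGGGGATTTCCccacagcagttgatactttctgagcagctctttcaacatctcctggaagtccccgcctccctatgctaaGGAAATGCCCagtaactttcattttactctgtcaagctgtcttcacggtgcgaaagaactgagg
A second Casp4 window shares 289 bases with this one and holds the same letters. In all 4 of 13 member windows, of 3 genes (Casp4, Bcl2l1 and Mcl1), held the NF-kB letters, a description of the sequence that says nothing of binding.

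Gsdmd encodes gasdermin D, the pore-forming target of both caspases, and lies on chromosome 15 (75862144 to 75867408). Its strand was not given in the sources used here, so both ends are described. The region at the lower end (75861466 to 75863160) stood at 81.9, 79.4, 87.6 and 80.1 in Allo 1 to 4, against 75.6, 73.6 and 80.3 in Syn 1 to 3, with Syn 3 inside the Allo range (difference 5.77 ± 3.07, SE, limma adjusted p = 0.394). The region at the upper end (75867900 to 75869090) averaged 93.1 ± 1.08 in the 4 Allo libraries (mean ± SD) and 92.8 ± 1.94 in the 3 Syn libraries. A region below the lower end (75853920 to 75854658) separated the groups in the other direction, with 76.4, 80.0, 78.2 and 72.4 in Allo 1 to 4, against 80.8, 85.2 and 92.0 in Syn 1 to 3. Its difference was −9.27 ± 3.16 (SE, limma adjusted p = 0.190, exact permutation p = 0.0286). The other 2 Gsdmd regions ranked low and their groups overlapped.

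Bcl2l1, which encodes the anti-apoptotic BCL-XL, had the most regions of the 10 genes. All 12 lay in its body on chromosome 2 (152758732 to 152833803, minus strand), and 8 were open in all libraries. The best ranked region at its starts (152830384 to 152831910) stood at 96.8, 95.8, 96.8 and 97.1 in Allo 1 to 4, against 94.2, 94.9 and 93.8 in Syn 1 to 3. Each Allo library was above each Syn library (difference 2.33 ± 0.79, SE, limma adjusted p = 0.189, exact permutation p = 0.0286). The region 23.9 kb downstream of the nearest start (152804257 to 152805391) stood at 77.1, 87.6, 89.5 and 85.0 in Allo 1 to 4, against 74.8, 71.4 and 73.3 in Syn 1 to 3. The groups were apart here too, and this was the member region with the lowest adjusted p (difference 11.7 ± 3.27, SE, limma adjusted p = 0.122). It was the 1 member called with ranks among shared regions (difference 16.8, limma adjusted p = 0.0389), and it was also called without Allo 1 (limma adjusted p = 0.0307) and without Allo 1 and 2 (limma adjusted p = 0.0148). Those settings raised the share of all shared regions called higher as well, to 0.865% without Allo 1 and 8.68% without Allo 1 and 2, against 0.36% with all libraries. Without Allo 3 and 4, that is within 1 naming scheme, the difference was 9.20 (limma adjusted p = 0.323). In that setting 0 regions of the whole set were called.

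The Allo-only region of Bcl2l1 (152788816 to 152789887) stood at 25.1, 40.3, 8.25 and 6.20 in Allo 1 to 4, and the Syn libraries had no peak there. It ranked low, mainly in Allo 3 and Allo 4. It no longer counted as Allo-only with a −log10 q of at least 5, with lists of equal length or with short windows around summits in place of whole peaks. The remaining 6 shared Bcl2l1 regions gave no common direction: their differences ran between −12.2 and 7.74 percentile points, and their groups overlapped. A weak region (152828628 to 152828938) lay at a Bcl2l1 start further in than the inner start shown above. It was open in Allo 1 and 2 at 27.5 and 36.7, and in Syn 1 to 3 at 32.3, 44.1 and 45.9.

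Mcl1 encodes a short-lived anti-apoptotic protein. It had 8 regions on chromosome 3, of which 5 were open in all libraries and 2 had their summits in the body (95656944 to 95663179, plus strand). The start region (95658317 to 95659736) stood at 89.8, 89.5, 86.6 and 94.2 in Allo 1 to 4, against 85.9, 88.1 and 90.5 in Syn 1 to 3. The groups overlapped (difference 1.86 ± 1.84, SE, limma adjusted p = 0.683), as they did at the other 4 shared regions. A weak region 10.1 kb downstream (95668631 to 95668978) was open in Allo 1, 3 and 4 at 13.2, 30.4 and 36.5 and in no Syn library, and one in the body (95662279 to 95662644) was open in no Allo library and in Syn 1 and 3 at 26.7 and 34.1.

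Summit positions lay apart between the groups at 2 of 32 member regions (6.25%), where 5.87% of all shared regions did so. At the inner Casp8 start the summits were 40, 43, 44 and 43 bp downstream of the transcript start in Allo 1 to 4, against 50, 53 and 47 bp in Syn 1 to 3, a mean shift of −7.50 bp. At a Bcl2l1 region in the body (152766372 to 152767082) the mean shift on the genome was −19.2 bp. The exact permutation p was the smallest possible, 0.0286, at either region.

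The number of peaks per gene did not separate the types either. Over the 10 genes the difference between the means of Allo and Syn ran between −0.33 (Casp1) and 0.58 peaks (Fas). The lowest unadjusted exact permutation p of the 10 was 0.429 (Casp1). All 10 had a Benjamini-Hochberg adjusted exact permutation p of 1 over 17298 genes with any peak, of which 0% were called and 2.76% had an unadjusted p under 0.05. As the smallest p that 35 relabellings allow is 0.0286, the adjusted test could not call any gene here.

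The other genes of the same pathways gave 257 regions, from 50 genes in 6 groups of roles. Of these genes 43 had a start peak in all 7 libraries, among them all 12 adaptors and ubiquitin ligases, all 9 BCL2-family genes and all 7 executioners, but 7 of 13 inflammasome and pyroptosis genes. Open in all 4 Allo and no Syn libraries were 4 of the 257 regions (1.56%, against 1.14% of all merged regions), and open in all 3 Syn and no Allo libraries were 0. By limma, 2 of the 159 shared regions rose in Allo (1.26%, background 0.36%) and 0 fell (background 0.101%). At an unadjusted p under 0.05, limma gave 21 higher (13.2%, background 8.53%) and 7 lower (4.40%, background 6.88%). The median difference over these 159 regions was 1.20 percentile points, against 0.437 over all shared regions. Over the shared regions of the marker lists it was 4.37 for myeloid cells (15 regions), 3.68 for Paneth cells (4 regions), 3.28 for T and NK cells (5 regions), 0.0444 for the epithelium (32 regions) and 0.0342 for stem cells (35 regions). Of the 15 myeloid regions 1, tied to Fcgr3, rose by limma, and 3 separated with Allo higher and 1 with Allo lower. Of the 35 stem cell regions 1, tied to Ascl2, rose by limma, and 6 separated with Allo higher and 4 with Allo lower. In the other marker lists 0 rose. There 3 of 32 epithelial, 1 of 5 T and NK cell and 0 of 4 Paneth cell regions separated with Allo higher, and 0 with Allo lower. Of all shared regions 0.36% rose, and 8.06% separated with Allo higher and 6.58% with Allo lower. The part of these cells in the pathway values was not tested.

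The pathway regions that rose were tied to Bcl2, the founding anti-apoptotic gene of its family, and to Il1b, the cytokine that caspase-1 matures. The Bcl2 region lay in the body on chromosome 1 (106618865 to 106619613), 95.2 kb downstream of the nearest start. It stood at 69.5, 66.9, 84.2 and 81.4 in Allo 1 to 4, against 15.1, 32.8 and 17.7 in Syn 1 to 3. All Allo libraries were far above all Syn libraries (difference 53.6 ± 7.32, SE, limma adjusted p = 0.0157). Of the 12 shared Bcl2 regions this was the 1 called. By limma the call was lost without Allo 4 (adjusted p = 0.0620), Syn 1 (0.0752), Syn 2 (0.0519) or Syn 3 (0.0710), and without Allo 3 and 4 (0.0809), while the difference stayed between 46.4 and 62.5 on the percentile scale. Under these settings fewer regions of the whole set were called higher than the 181 with all libraries. In the order given they numbered 2, 6, 4, 10 and 0.

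The Il1b region lay on chromosome 2 (129413412 to 129414072), outside the body and 42.6 kb upstream of the nearest start. It was tied to Il1b by distance alone, and Il1b had no start peak in any library. The region stood at 69.4, 73.7, 81.3 and 75.6 in Allo 1 to 4, against 43.9, 30.0 and 11.1 in Syn 1 to 3. The groups were apart (difference 46.6 ± 7.79, SE, limma adjusted p = 0.0271). By limma the call was lost without Allo 3 (adjusted p = 0.0716), Allo 4 (0.0821), Syn 1 (0.0706), Syn 2 (0.0982) or Syn 3 (0.0970), without Allo 3 and 4 (0.110), without the variance trend (0.0804) and with ranks by fold (0.0685), while the difference stayed between 38.0 and 54.4. Here too fewer regions of the whole set were called higher than the 181 of the main setting. In the order given they numbered 45, 2, 6, 4, 10, 0, 97 and 18.

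The Allo-only regions of these lists lay in the bodies of Apaf1, the scaffold of the apoptosome (chromosome 10, 91045909 to 91046232, mean percentile 43.7), Bid, the BCL2-family protein that caspase-8 cuts (chromosome 6, 120901774 to 120902094, mean percentile 42.4), and Nlrp1b, a mouse inflammasome sensor. Nlrp1b held 2 of them, on chromosome 11 from 71203458 to 71203971 (mean percentile 43.3) and from 71230511 to 71231063 (mean percentile 22.3), the second at a transcript start. Means are over the 4 Allo libraries. In Allo 1 to 4 the second Nlrp1b region stood at 10.6, 52.2, 10.3 and 16.1, and the first at 35.7, 37.0, 59.4 and 40.9. The Apaf1 region stood at 54.6, 65.1, 19.0 and 36.2, and the Bid region at 34.4, 34.2, 48.0 and 53.2. Whether these regions stay Allo-only under other settings was not examined.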

How the data were processed

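ATAC-seq peaks of 7 libraries (4 Allo, 3 Syn, grouped by title) were used. Per the submitters' processing notes, the mm10 build and the tools Bowtie2, Trim Galore, MACS3 and MACS2 were involved, and versions, roles and the calling threshold are not given in the sources used here. Peaks had been called per library. The deposited columns hold a score (10 times the −log10 q, not used), a fold over background (a ratio), and the −log10 of the p- and q-values, all as the authors' values of single peaks. Read depth is unknown, so no counting interval is given.

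Peaks on chromosomes 1 to 19 and X were ranked within each library by −log10 q. Peaks overlapping by at least 1 bp were merged over libraries, and a region took the best percentile of a library's peaks. Gene bodies and starts came from RefSeq tables of GRCm38.p6, the build of mm10, in which 9 of 10 genes had promoter windows. All 10 genes were named by rule, with the listed pathway genes that had a called or one-sided region, and the members and lists were chosen with earlier results of these data known. Percentiles were tested with limma 3.58.1 (R 4.3.3, trend, Benjamini-Hochberg at 0.05 over 50324 regions), after a check on simulated data, and single values by two-sided exact permutation over 35 relabellings. Replicates are pools of mice. Python 3.11.15, numpy 2.4.6, pandas 2.3.3 and scipy 1.17.1 were used. Alternatives are given in the closing section.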

Additional observations from a re-analysis of the deposited data

Results flagged for a closer look

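A single Allo library stood apart in 6 of the 43 sets of values examined, and the criterion used marks about 1 in 20 sets by chance for continuous values. In 5 of them the values are whole numbers of peaks per gene, and a difference of 1 peak sets a library apart when the other 3 are alike, so that rate was not shown to hold for them. These were Allo 1 with 3 peaks at Fas, Allo 3 with 2 at Ripk1, Allo 2 with 4 at Casp4, Allo 4 with 6 at Gsdmd and Allo 2 with 11 at Bcl2l1. The sixth was the Mcl1 region 6.04 kb upstream of the start (chromosome 3, 95650296 to 95651264), where Allo 1 had a rank percentile of 61.3 and the other Allo libraries had 80.5, 81.9 and 79.3, against 77.2, 72.5 and 75.0 in Syn 1 to 3.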

How the results depend on the processing

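The number of member regions open in all libraries stayed within 1.5 times of 32 under each alternative tried. The Allo-only count was 0 with a −log10 q of at least 5, with lists cut to the shortest length and with short windows around summits, and 1 when any library was left out. The Syn-only count was 1 without Allo 1 and 2, and 0 to 1 when single libraries were left out. Calls by limma among the members were 1 higher with ranks among shared regions (3.12%, background 1.33%), 1 higher and 1 lower without Allo 1 and 2 (3.12% each, background 8.68% and 3.46%), and 0 to 1 higher and 0 lower without single libraries (background 0.00394% to 0.865% and 0% to 0.643%). Regions that separated the groups numbered 1 higher and 1 lower when ranked by fold (3.12% each, background 5.57% and 5.95%), 10 higher without Allo 1 and 2 (31.2% of the members, background 33.8%), 8 lower without Allo 3 and 4 (24.2%, background 20.1%), and 3 to 5 higher and 4 to 6 lower without single libraries (background 8.81% to 16.1% and 7.50% to 11.6%). Of the regions named, the Gsdmd region at 75853920 was called without Allo 1 and 2 (difference −10.7, limma adjusted p = 0.0498).

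Some differences changed sign, among them that of the Mlkl start region (6.62 with all libraries), the largest among the best ranked start regions of the genes. The inner Casp8 start differed by more (7.08 with all libraries). It kept its sign under each alternative, with differences of 4.76 to 9.48 on the percentile scale. Peaks per gene, Allo minus Syn, were −0.25 at Gsdmd with the stricter threshold and with lists of equal length, −0.17 and −0.58 at Bcl2l1 under the same settings, and, without Allo 3 and 4, 0.17 at Casp4 and −0.17 at Mcl1. Without single libraries they ran between −0.33 and 0.25 at Casp4 and between −0.25 and 0.75 at Bcl2l1. At Ripk1 the start region differed by 0.0192 (log2 odds) with the logit scale, 0.35 under the block and 0.37 without Allo 1 and 2. Ranked by fold, the start region differed by −1.05 at Ripk3 and −1.45 at Mlkl. It differed by −0.22 at Ripk3 without Allo 3 and 4, and by 2.12 at Casp4 without Allo 1 and 2. At Gsdmd the region at the upper end differed by −0.0069 with lists of equal length and −0.0089 with ranks among shared regions. With those ranks the Gsdmd region at the lower end differed by 7.49. Without single libraries the range of the start region was −2.59 to 0.11 at Fas, −0.61 to 0.37 at Ripk1, −0.0992 to 8.70 at Casp1 and −4.14 to 0.77 at Casp4. For the Gsdmd region at the upper end it was −0.86 to 0.84. The Casp4 region in the body gave 1.80 when ranked by fold. The cause of these changes was not tested.

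Libraries of both types share the numbers 1 to 3. Their deviations from the group means correlated between −0.0333 and 0.0755 for equal numbers and between −0.0926 and 0.0376 for unequal ones. The highest values were those of Allo 1 with Syn 1 (0.0755) and Allo 3 with Syn 3 (0.0742), while Allo 2 with Syn 2 gave −0.0333. Correlations this small cannot show whether the numbers pair samples. With the replicate block, a fit that leaves out Allo 4 for want of a partner, 0 member regions were called higher and 0 lower by limma (background 0.162% and 0.120%), and the Ripk1 start region differed by 0.35. The Il1b region could not be fitted with lists of equal length, since it was not open in all of them. Depth is unknown, and a missing peak is not shown to be closed chromatin.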

Other observations

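Among the pathway genes outside the list of 10, regions whose groups did not overlap were higher in Allo at 17 of 159 shared regions (10.7%, background 8.06%) and lower at 8 (5.03%, background 6.58%). As at Casp8, some genes held regions of both directions, a pattern noted after the values were seen. Its share over all genes with several shared regions was not determined. Pmaip1, which encodes the pro-apoptotic NOXA, had a region at 81.9 ± 0.96 in the 4 Allo libraries (mean ± SD) and 72.5 ± 0.98 in the 3 Syn libraries. Another of its 11 shared regions stood at 43.6 ± 10.1 in Allo and 69.8 ± 3.38 in Syn. Both lay outside the body, 38.6 and 36.9 kb from the nearer gene end, as the strand of Pmaip1 was not given. Xiap, an inhibitor of caspases, had a region at a start with 81.1 ± 5.04 in the 4 Allo libraries (mean ± SD) and 67.9 ± 2.46 in the 3 Syn libraries. Another of its 6 shared regions, 8.72 kb upstream, stood at 17.3 ± 9.83 in Allo and 46.4 ± 6.70 in Syn. Cycs, with 6 shared regions, also had regions of both directions, outside its body. They differed by 24.0 (limma adjusted p = 0.0781) and by −7.07 (limma adjusted p = 0.373). None of the 4 regions of Pmaip1 and Xiap passed the test across all shared regions either (limma adjusted p between 0.107 and 0.154).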
